A study of Rattus norvegicus with 12 samples.

Results

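Postn, Tnc, Fn1, Sparc, Cthrc1, Fap, Tgfbi and Cilp encode periostin, tenascin C, fibronectin, SPARC, collagen triple helix repeat containing 1, fibroblast activation protein, the TGF-beta induced protein and cartilage intermediate layer protein. These 8 genes were taken by gene name from the 30560 genes of a rat heart RNA-seq count table, and all 8 were among the 18182 genes with at least 10 counts in total that were tested. RNA came from sections of 20 µm of formalin-fixed, paraffin-embedded left ventricle of 12 male Wistar rats, with 1 library per rat. The rats were 7 weeks old at surgery. In the MI and MI + UA groups the left anterior descending coronary artery was tied permanently to cause a myocardial infarction (MI), and in the Sham group the chest was opened but no suture was passed. Urolithin A (UA), a compound that gut bacteria make from ellagitannins, was given by gavage every day for 8 weeks in MI + UA, while Sham and MI rats received the carboxymethylcellulose vehicle. The series' design text gives the UA as 50 mg/ml, and the study's accounts of its dose and of the day it was started differ. Each group held 4 rats: Sham rats 12, 17, 32 and 38, MI rats 36, 57, 61 and 89, and MI + UA rats 29, 58, 64 and 66. Rat 66 is labelled MI + UA but stands among the vehicle-treated MI rats in an echocardiography table of the study, and its label was followed here. MI and Sham were compared for the effect of infarction on these genes, and MI + UA and MI for the effect of UA on the infarcted heart.

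A cardiac fibroblast in healthy myocardium makes little of most of these proteins. After an infarction, dying muscle is replaced by a scar, and fibroblasts exposed to TGF-beta and to mechanical load turn into myofibroblasts and later into the matrix-producing cells of the mature scar. Periostin, tenascin C and SPARC are matricellular proteins, which sit in the matrix and signal through integrins rather than bearing load. Fibronectin is the first scaffold of the wound, onto which collagen is laid. CTHRC1 is a secreted protein of wound and scar fibroblasts, the CILP protein is a secreted matrix protein that binds TGF-beta 1, and FAP is a cell-surface protease that marks activated fibroblasts. The sections hold muscle and scar together, so fewer cells of a type and less RNA per cell cannot be told apart in these values.

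RefSeq promoter windows, from 250 bases before to 50 bases after the transcript start in the GRCr8 assembly, were given for 6 of the 8 genes. Fn1 and Cthrc1 had none. The windows of Postn, Tnc and Sparc are shown because they belong to 3 matricellular proteins whose estimated folds in MI versus Sham (below) were 6.27, 7.39 and 1.24. Capitals mark TATAA, the TATA box core, and GGAATG or its reverse complement CATTCC, the core of a TEAD factor site. TEAD factors are the DNA-binding partners of the mechanosensitive YAP and TAZ proteins.
Postn (chr2:140677811-140678110, + strand): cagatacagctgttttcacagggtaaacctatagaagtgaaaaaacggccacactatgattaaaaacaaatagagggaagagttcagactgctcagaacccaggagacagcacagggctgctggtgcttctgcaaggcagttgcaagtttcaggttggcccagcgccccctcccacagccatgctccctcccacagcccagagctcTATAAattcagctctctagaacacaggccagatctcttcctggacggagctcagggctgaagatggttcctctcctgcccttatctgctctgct
Tnc (chr5:82476082-82476381, - strand): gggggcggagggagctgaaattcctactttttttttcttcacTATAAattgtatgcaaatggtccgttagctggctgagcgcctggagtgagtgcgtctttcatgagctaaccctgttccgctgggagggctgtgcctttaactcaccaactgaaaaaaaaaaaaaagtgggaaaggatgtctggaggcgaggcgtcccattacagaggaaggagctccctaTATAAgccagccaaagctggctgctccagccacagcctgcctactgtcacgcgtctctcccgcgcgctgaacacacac
Sparc (chr10:40038767-40039066, - strand): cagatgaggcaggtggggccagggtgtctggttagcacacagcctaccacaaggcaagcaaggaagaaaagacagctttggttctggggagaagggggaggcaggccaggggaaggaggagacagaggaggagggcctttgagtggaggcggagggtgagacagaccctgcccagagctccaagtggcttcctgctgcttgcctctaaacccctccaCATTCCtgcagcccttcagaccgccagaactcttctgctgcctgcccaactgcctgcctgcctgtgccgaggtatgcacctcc
Both strands were searched. TATAA lay in the windows of 2 of the 6 genes, at positions -44 to -40 in Postn and at -208 to -204 and -28 to -24 in Tnc, against 26.2% of 33469 promoters of the same length. GGAATG lay in that of Sparc alone, at -33 to -28, against 14.2% of promoters. CAGAC, a SMAD core, lay in 5 of the 6 (50.1% of promoters), as did the E-box CANNTG (72.1%). The AP-1 letters TGANTCA lay in 0 of the 6, against 7.33% of promoters. None of the marked letters overlapped another motif in these windows. The windows of Fap, Tgfbi and Cilp, with estimated folds of 1.91, 1.22 and 4.28, held neither TATAA nor GGAATG. A link between these motifs and the folds was not tested.

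Libraries held between 6228706 and 19031695 reads on genes (Sham 6228706 to 8958828, MI 6829591 to 12743184, MI + UA 6819444 to 19031695), of which the mitochondrially encoded genes took 50.2% to 58.6%. Of the reads counted, 50.4% to 53.4% fell on genes in Sham, 47.6% to 49.8% in MI and 46.2% to 50.8% in MI + UA, so that MI lay below Sham without overlap, and the part of this in the MI versus Sham rises was not tested. Within each group all pairs of libraries differed by more than sampling noise (chi-square per degree of freedom 1.89 to 15.7 over 18 pairs), so no library was counted as a repeat of another. Markers of other cells moved with the groups. The summed level of 8 cardiomyocyte markers was 47920 to 54580 CPM (counts scaled by TMM to a common library size) in Sham, 33470 to 39530 in MI and 35150 to 46320 in MI + UA, and all 8 were lower in MI than in Sham in edgeR's test. For 9 macrophage markers the sum was 129 to 163 CPM in Sham, 261 to 417 in MI and 219 to 444 in MI + UA, and 8 of 9 were higher in MI. Of all genes tested, 5.82% were called higher and 5.53% lower in MI than in Sham. General fibroblast markers (Pdgfra, Tcf21, Dcn, Lum, Gsn, Ddr2, Thy1 and Col15a1) summed to 1108 to 1330 CPM in Sham, 1279 to 1739 in MI and 1381 to 1724 in MI + UA. In rat 36 the cartilage genes Col2a1 (405 counts there and 4 in the other 11 libraries together) and Acan (126 counts) stood apart. Rat 36 also had the highest sum of 2 adipocyte markers (3.29 CPM, against at most 0.80 CPM in the other rats). In rat 58 the Schwann cell gene Sox10 was at 28.3 CPM, against 5.90 to 11.6 CPM in the other rats. The part of these cell types in the values below was not tested.

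Infarction was accompanied by higher levels of 5 of the 8 genes: Postn, Fn1, Sparc, Fap and Cilp passed the test in MI versus Sham (edgeR quasi-likelihood test, Benjamini-Hochberg adjusted p under 0.05), none was lower, and of all genes tested 5.82% were called higher and 5.53% lower. Estimated rises ran from 6.27-fold for Postn to 1.24-fold for Sparc. In CPM the MI rats lay above all Sham rats at 6 genes, those 5 and Tnc, where 8.13% of all genes tested did so in this direction. The log2 fold change was above 0 at 8 of 8 genes (53.0% of all genes), with a median of 1.97 against 0.03 over all genes tested. Leaving out each rat in turn gave between 4 and 6 genes called.

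**Figure D1:**
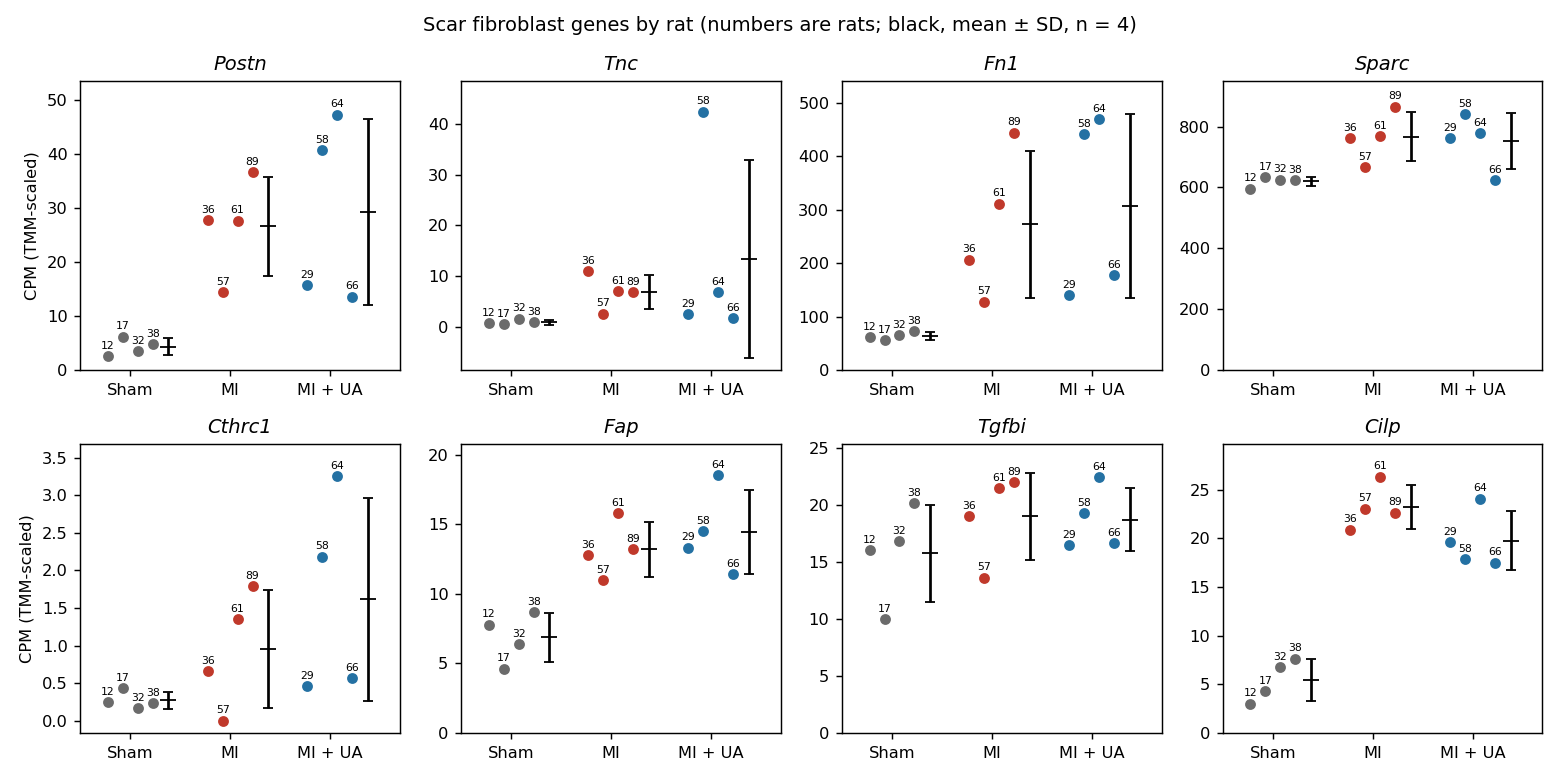
CPM of each of the 8 genes (y axis, linear, a separate scale per gene) in each rat by group (x axis); points are rats with their numbers and black marks are the group mean ± SD (n = 4). The MI and MI + UA rats lie above all Sham rats for Postn, Tnc, Fn1, Fap and Cilp, and rat 58 stands far above all others for Tnc.

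Periostin, encoded by Postn (ENSRNOG00000012660), promotes collagen crosslinking and is the standard marker of the activated cardiac fibroblast. Its level was 2.63, 6.21, 3.54 and 4.89 CPM in Sham rats 12, 17, 32 and 38, and 27.9, 14.4, 27.7 and 36.7 CPM in MI rats 36, 57, 61 and 89. Every MI rat was at more than double the highest Sham rat, with rat 57 the lowest and rat 89 the highest of the MI group. Mean levels were 4.32 ± 1.56 CPM in Sham and 26.7 ± 9.20 CPM in MI (SD, n = 4 each), and the estimated log2 fold change was 2.65 (standard error 0.40, 95% interval 1.82 to 3.48, edgeR adjusted p = 0.00016). The TGF-beta induced protein belongs to the same fasciclin-domain family as periostin. Tgfbi (ENSRNOG00000012216) was at 16.1, 9.96, 16.8 and 20.2 CPM in the Sham rats and at 19.0, 13.6, 21.5 and 22.0 CPM in the MI rats, in the same order of rats. The groups overlapped, with the MI rat higher in 12 of the 16 Sham and MI pairs, and the log2 fold change of 0.28 (95% interval -0.08 to 0.65) had an edgeR adjusted p of 0.355. The upper end of that interval is below the lower end for Postn.

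Tenascin C, which Tnc (ENSRNOG00000058645) encodes, is a large matrix protein of embryonic and wounded tissue that loosens cell adhesion. Tnc held 6, 4, 10 and 8 counts in the Sham libraries, or 0.753, 0.577, 1.68 and 0.954 CPM, and 150, 17, 69 and 84 counts in MI rats 36, 57, 61 and 89, or 11.0, 2.67, 7.16 and 6.84 CPM. All MI rats were above all Sham rats, but the exact Poisson intervals of the lowest MI rat (1.55 to 4.27 CPM) and the highest Sham rat (0.807 to 3.10 CPM), which cover counting error only, overlapped. Its log2 fold change of 2.89 (standard error 0.94, 95% interval 0.92 to 4.85) was the largest estimate among the 8 genes and the least certain, with an edgeR adjusted p of 0.0528. Tnc passed the threshold with DESeq2 (adjusted p = 0.0237), with no filter on low counts (edgeR adjusted p = 0.00236), with MI and Sham alone in the edgeR fit (8.8e-05), with rat 66 counted in MI (0.049) and without rat 57 (0.0407). Leaving out each rat gave edgeR adjusted p-values from 0.0407 to 0.132. Rat 36, the highest MI rat for Tnc, is the library with the cartilage genes.

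Fibronectin, the product of Fn1 (ENSRNOG00000014288), links cells to the matrix through integrins and is made by fibroblasts, endothelial cells and macrophages. It was at 61.7, 55.6, 65.1 and 73.4 CPM in the Sham rats, a narrow range, and at 207, 128, 311 and 444 CPM in MI rats 36, 57, 61 and 89. The lowest MI rat was well above the highest Sham rat, while the MI rats themselves spread with a coefficient of variation of 50.2%. Its log2 fold change was 2.09 (standard error 0.34, 95% interval 1.38 to 2.81, edgeR adjusted p = 0.000405), or 4.27-fold.

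SPARC binds collagen and assists the assembly of its fibrils. Sparc (ENSRNOG00000012840) had 596, 633, 626 and 624 CPM in the Sham rats, with a coefficient of variation of 2.62%, and 763, 668, 770 and 866 CPM in the MI rats. The groups did not overlap, although rat 57 at 668 CPM stood close to the highest Sham rat at 633. The rise was small, a log2 fold change of 0.31 (standard error 0.09, 95% interval 0.12 to 0.50, edgeR adjusted p = 0.0347). This call was lost in 7 of the 8 edgeR fits that left out 1 rat (adjusted p from 0.0125 to 0.136) and with rat 66 counted in MI (0.0636), with log2 fold changes of 0.24 to 0.37 over the 8 fits.

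CTHRC1 marks a small population of collagen-rich fibroblasts in injured hearts and lungs. Cthrc1 (ENSRNOG00000004578) had low counts throughout and was close to the limit of detection in the Sham rats and in MI rat 57. It had 2, 3, 1 and 2 counts in the Sham libraries and 9, 0, 13 and 22 counts in MI rats 36, 57, 61 and 89. The 0 counts of rat 57 allow a level of up to 0.470 CPM (a limit of 3 counts), above the highest Sham value of 0.433 CPM, so the groups overlapped and no difference between rat 57 and Sham was detectable at this depth. The other 3 MI rats were at 0.658, 1.35 and 1.79 CPM, above all Sham rats. Its log2 fold change of 1.84 (standard error 0.84, 95% interval 0.09 to 3.59) had an unadjusted p of 0.0408 and an adjusted p of 0.184 in edgeR's test.

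The CILP protein was first known from cartilage and is also made by cardiac fibroblasts. Cilp (ENSRNOG00000029911) was at 3.01, 4.33, 6.73 and 7.63 CPM in the Sham rats and at 20.9, 23.1, 26.4 and 22.7 CPM in the MI rats. The gap between the groups was wide and the MI rats lay close together, with a coefficient of variation of 9.80%, the lowest of the 8 genes in MI. The log2 fold change was 2.10 (standard error 0.19, 95% interval 1.70 to 2.50) with an edgeR adjusted p of 8.3e-07, which put Cilp at rank 13 of the 18182 genes by p-value. Without MI rat 36 and its cartilage genes, as without each other rat, the estimate stayed between 1.88 and 2.34.

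FAP cleaves peptides after proline at the cell surface and is used to image activated fibroblasts after infarction. Fap (ENSRNOG00000005679) was at 7.78, 4.62, 6.40 and 8.70 CPM in the Sham rats and at 12.8, 11.0, 15.8 and 13.2 CPM in the MI rats. The lowest MI rat, 57, was above the highest Sham rat, 38. Its log2 fold change was 0.93 (standard error 0.19, 95% interval 0.54 to 1.32, edgeR adjusted p = 0.00212), and each fit that left out 1 rat kept an adjusted p of at most 0.0109.

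**Figure D2:**
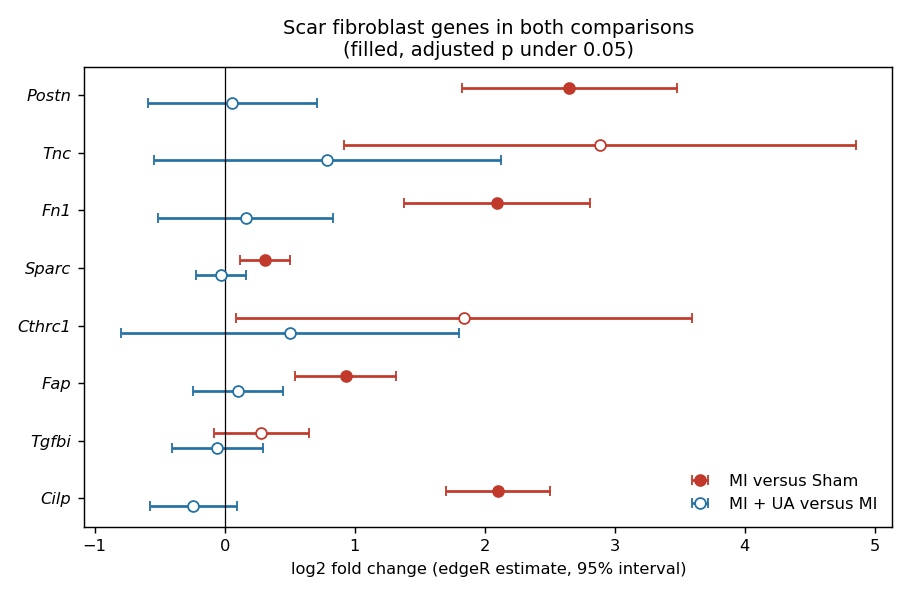
Log2 fold change (x axis, edgeR estimate with its 95% interval) of each gene (y axis) in MI versus Sham (red) and MI + UA versus MI (blue); filled points had an adjusted p under 0.05. The 5 filled points are all in MI versus Sham, from 0.31 for Sparc to 2.65 for Postn, and every blue interval includes 0.

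The general fibroblast markers were themselves higher in MI, at 5 of 8 genes (3 without MI rat 61, median log2 fold change 0.45), against 5.82% of all genes tested. Each of the 8 scar genes was therefore also measured against the mean log2 CPM of these markers within the same library. On this scale 4 of the 8 genes remained higher in MI than in Sham without overlap. Of all genes tested, 1.2% did so in this direction and 31.9% lay apart in either direction. The log2 ratio rose by 1.99 for Postn, 2.02 for Tnc, 1.35 for Fn1 and 1.56 for Cilp (two-sided exact permutation test, p = 0.0286 each, the smallest that 4 rats against 4 allow, and 0.114 after adjustment over 16 tests). Fap, at 0.35 (exact permutation p = 0.171), and Cthrc1, at 0.30 (exact permutation p = 0.8), overlapped. For Sparc the difference was -0.30, with the MI rat higher in 1 of 16 pairs (exact permutation p = 0.0571, 0.152 after adjustment), and for Tgfbi -0.31 (exact permutation p = 0.286). Sparc therefore had a higher CPM but no higher ratio to these fibroblast markers in MI. The mean of these markers was itself higher in MI, so a gene with an unchanged CPM has a difference below 0 on this scale.

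**Figure D3:**
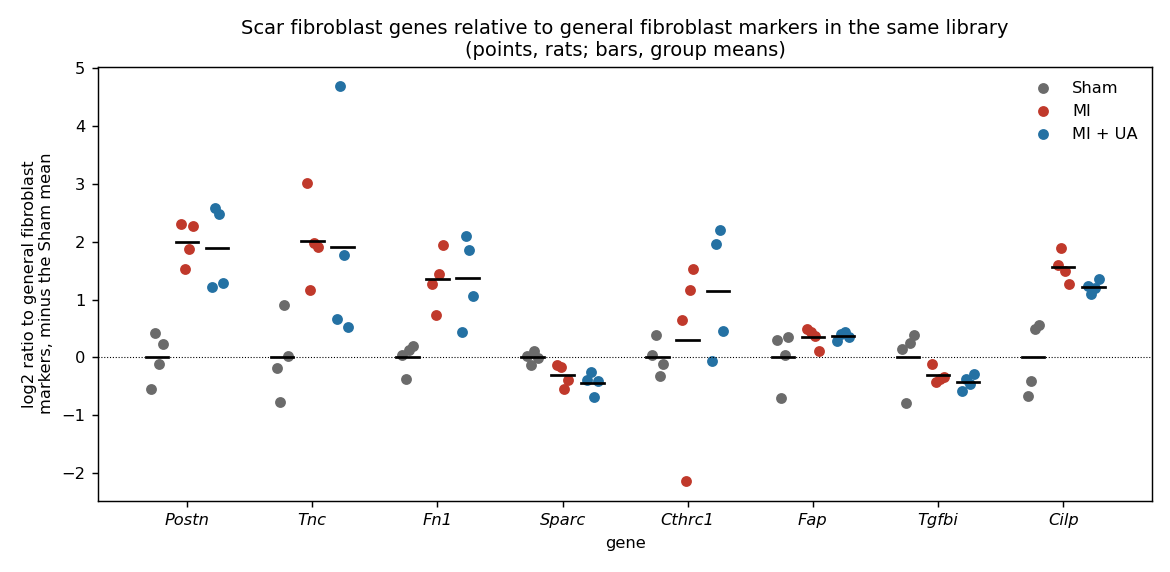
Log2 ratio of each gene to the mean of the 8 general fibroblast markers in the same library, minus the Sham mean (y axis), for each rat by gene (x axis) and group (color); bars are group means. Postn, Tnc, Fn1 and Cilp lie higher in all MI than in all Sham rats, Sparc and Tgfbi have MI means below 0, and the low MI point of Cthrc1 is rat 57 with 0 counts.

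Differences among the genes themselves were compared within each library, where scaling cancels. Of the 28 pairs of genes, 12 had a log2 ratio that separated all MI from all Sham rats (two-sided exact permutation p = 0.0286 each), against 12.8% of all pairs of genes tested, and 0 passed after adjustment over the pairs (adjusted p = 0.0667 at the smallest p the design allows). Postn rose more than Sparc by 2.29 and more than Tgfbi by 2.30 on the log2 scale. Tnc rose more than Sparc by 2.32, Fn1 more than Sparc by 1.65 and Cilp more than Fap by 1.21. Fap in turn rose more than Sparc by 0.66 and more than Tgfbi by 0.67. Among Postn, Tnc, Fn1 and Cilp the ratios overlapped, with a difference of -0.03 between Postn and Tnc (exact permutation p = 1), 0.65 between Postn and Fn1 (exact permutation p = 0.114) and 0.43 between Postn and Cilp (exact permutation p = 0.343). Sparc and Tgfbi differed by 0.01 (exact permutation p = 0.971).

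None of the 8 genes differed between MI + UA and MI by more than the spread between rats. In MI + UA versus MI, 0 of the 8 passed the test and 0 had an unadjusted p under 0.05 in edgeR's test, where 0 and 3.79% of all genes did so. DESeq2 also called 0 of the 8. At 0 genes did the groups lie apart, against 2.34% of all genes, and the log2 fold change was above 0 at 5 of 8 genes (51.0% of all genes), with a median of 0.08 against 0.005 over all genes. Adjusted p-values were 1 for all 8 genes.

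Postn was at 15.7, 40.8, 47.4 and 13.6 CPM in MI + UA rats 29, 58, 64 and 66. Rats 58 and 64 were above the highest MI rat and rat 66 was below the lowest, and the log2 fold change against MI was 0.06 (95% interval -0.59 to 0.71). Fn1 was at 140, 442, 469 and 178 CPM in the same rats, again with rats 58 and 64 the highest, against a range of 128 to 444 CPM in MI. Its log2 fold change was 0.16 (95% interval -0.51 to 0.83). For both genes a fall as large as the rise from Sham to MI lies outside the interval.

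Tnc was at 2.51, 42.4, 6.90 and 1.86 CPM in rats 29, 58, 64 and 66. Rat 58 alone held 330 counts and stood far above the highest MI rat at 11.0 CPM, while the MI + UA rat was higher in 6 of the 16 pairs of rats. The log2 fold change of 0.79 (95% interval -0.54 to 2.12, unadjusted p = 0.232) rests on this library and became -1.08 without it. Rat 58 is the library with the high Schwann cell gene Sox10, and also held the highest level of S100b (5.27 CPM against at most 2.20 CPM in the other 11 rats). The part of Schwann cells in the Tnc value was not tested. Cthrc1 had 8, 17, 24 and 10 counts, or 0.457, 2.18, 3.25 and 0.563 CPM, a log2 fold change of 0.50 (95% interval -0.80 to 1.80) against MI.

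Sparc was at 762, 842, 777 and 625 CPM in rats 29, 58, 64 and 66, and the value of rat 66 lay within the Sham range. Its interval against MI was the narrowest of the 8, from -0.22 to 0.16 around a log2 fold change of -0.03. Fap was at 13.3, 14.5, 18.5 and 11.4 CPM (log2 fold change 0.10, 95% interval -0.25 to 0.45) and Tgfbi at 16.5, 19.3, 22.5 and 16.7 CPM (log2 fold change -0.06, 95% interval -0.41 to 0.29). Both genes overlapped the MI rats. Cilp, at 19.7, 17.9, 24.1 and 17.5 CPM, had the lowest unadjusted p of the 8 (0.15), with a log2 fold change of -0.24 (95% interval -0.57 to 0.09) and the MI + UA rat higher in 3 of the 16 pairs.

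Measured against the general fibroblast markers, Cilp was lower in MI + UA than in MI by -0.34 on the log2 scale, with the MI + UA rat higher in 1 of 16 pairs (two-sided exact permutation p = 0.0571, 0.152 after adjustment over 16 tests). The log2 ratios were -1.73, -1.44, -1.83 and -2.06 in MI rats 36, 57, 61 and 89 and -2.09, -2.24, -2.12 and -1.98 in MI + UA rats 29, 58, 64 and 66. Rats 89 and 66 are the only pair that overlap, so the groups lie apart by construction without either of them or with rat 66 counted in MI. With all rats as labelled 0 of the 8 genes lay apart on this scale, against 1.2% of all genes in either direction and 0.335% higher in MI + UA. The ratio of Cthrc1 differed by 0.84 (exact permutation p = 0.514), and those of the other 6 genes by -0.14 to 0.02.

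Against Sham, 5 of the 8 genes were higher in MI + UA (of all genes tested 5.16% were called higher and 9.44% in either direction), and 8 of 8 had a log2 fold change above 0 (52.3% of all genes). The median was 2.06 against 0.02 over all genes. These were Postn (log2 fold change 2.71, standard error 0.40, edgeR adjusted p = 0.000186), Tnc (3.67, 0.91, 0.0123), Fn1 (2.25, 0.35, 0.000303), Fap (1.03, 0.18, 0.00111) and Cilp (1.86, 0.19, 3.49e-06). Tnc fell to a log2 fold change of 1.80 without rat 58 (edgeR adjusted p = 0.0438). Cthrc1, at 2.34 (edgeR adjusted p = 0.0793), and Sparc, at 0.28 (0.0636), did not pass, and both passed with DESeq2 (adjusted p = 0.025 and 0.041), with no filter, with rat 66 counted in MI and without rat 66. Tgfbi was at 0.23 (edgeR adjusted p = 0.503). The MI + UA rats lay above all Sham rats at 6 of the 8 genes, against 7.83% of all genes in this direction.

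**Figure D4:**
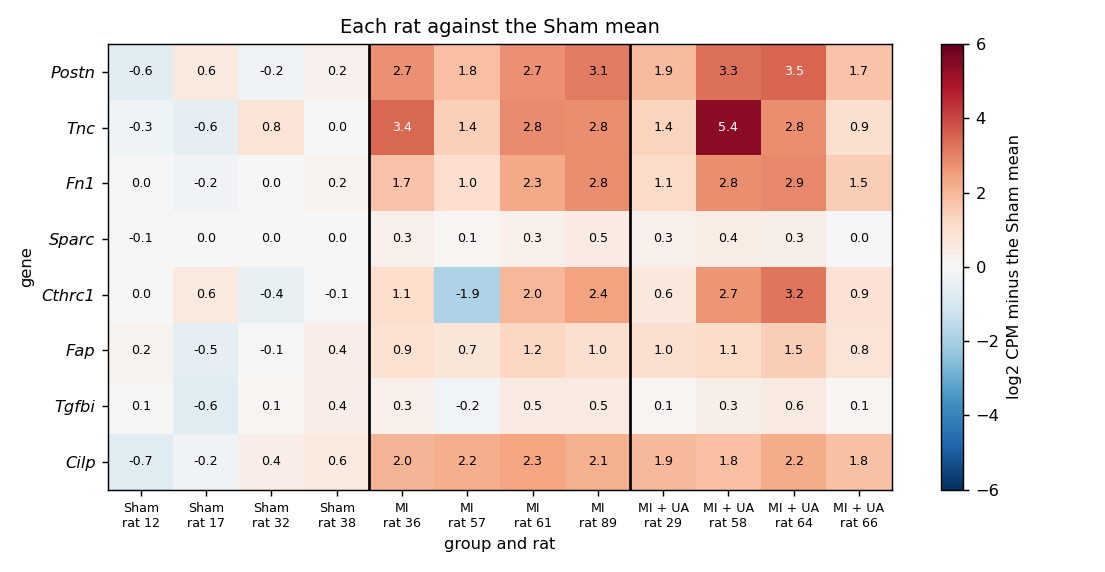
Log2 CPM of each gene (y axis) in each rat (x axis, grouped) minus the mean of the 4 Sham rats; red is higher and blue lower than Sham, and the number is printed in each cell. Rats 57 and 66 have the lowest values of their groups for most genes, rat 58 reaches 5.4 for Tnc, and Cilp varies little from rat to rat in both infarcted groups.

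The infarcted rats differed among themselves in a similar order at most of these genes. In the MI group rat 57 was the lowest at 7 of the 8 genes, all but Cilp, for which rat 36 was lowest. Over the 8 infarcted rats together, rat 57 was lowest at 4 genes and rat 66 at the other 4, and rat 66 was in the lower 4 for all 8. Rat 64 was highest at 5 genes and among the upper 4 for all 8, with rat 58 highest for Tnc, rat 61 for Cilp and rat 89 for Sparc. The summed level of 13 scar collagen genes followed, with 2464 CPM in rat 66 and 2513 in rat 57 against 3773 in rat 64, 3942 in rat 89 and 4181 in rat 58. That of 14 TGF-beta pathway genes (below) did not, with its highest value among the infarcted rats in rat 57 (1079 CPM) and its lowest in rat 36 (814 CPM). Rat 66 also had the highest summed cardiomyocyte markers of the infarcted rats (46320 CPM) and the lowest macrophage markers (219 CPM). Rats 29 and 66, with low Postn, Tnc and Fn1, had the deepest libraries (17382116 and 19031695 reads), and rats 57, 58 and 64, which span the range, had the shallowest of the infarcted rats (6829591, 6819444 and 7060389). The mitochondrially encoded genes took 57.6% of the reads in rat 57 and 56.8% in rat 66, the highest shares of the infarcted rats, and 50.2% in rats 58 and 61, the lowest. The part of depth, mitochondrial share, section or scar share in this order was not tested.

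The relatives of these proteins, genes that share a domain or a family with them, also included genes that rose. Of 14 that were tested, 4 were higher in MI than in Sham and none was lower, where 5.82% of all genes tested were called higher and 5.53% lower. The list had a median of 0.12 in log2 fold change, against 0.03 over all genes tested. Cilp2, which encodes a second cartilage intermediate layer protein, had 1 count over the 4 Sham libraries and 77 over the 4 MI libraries, with 49 of them in rat 36 (edgeR adjusted p = 0.00132). Tnn, for tenascin N (also called tenascin W), was at 3.44, 0.157, 5.50 and 11.5 CPM in MI rats 36, 57, 61 and 89 and at 0.400, 15.8, 13.9 and 0.675 CPM in MI + UA rats 29, 58, 64 and 66, against at most 0.673 CPM in Sham. It overlapped Sham through rat 57 with its 1 count, and passed the test (log2 fold change 4.24, standard error 1.30, edgeR adjusted p = 0.0389). Rats 57, 29 and 66, the lowest for Tnn, were also the 3 lowest infarcted rats for Tnc, Postn and Fn1. Smoc1, a SPARC relative, rose by 1.53 (edgeR adjusted p = 0.00588), and Stab1, a scavenger receptor with fasciclin domains that is found on macrophages and endothelium and binds SPARC, by 0.97 (edgeR adjusted p = 6.64e-06) on the log2 scale. Sparcl1, a close relative of Sparc, was not called (0.10, edgeR adjusted p = 0.654), nor was the FAP relative Dpp4 (-0.43, edgeR adjusted p = 0.0646).

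Integrins and syndecans, some of which are receptors for these proteins, rose in part. Among 12 such genes tested, 4 were higher in MI than in Sham, none was lower and 8 were not called (median log2 fold change 0.24). Of all genes tested, 5.82% were called higher and 5.53% lower. Itgav, Itga5 and Itgb3 were among those not called, with mean levels of 161.2, 82.24 and 4.095 CPM in Sham and 173.6, 83.55 and 4.338 CPM in MI. Itga11, whose product pairs with integrin beta 1 to bind collagen on myofibroblasts, was at 2.44 ± 0.226 CPM (SD, n = 4) in Sham and 8.16 ± 1.45 CPM (SD, n = 4) in MI (log2 fold change 1.74, edgeR adjusted p = 1.39e-05). Itga8, a receptor chain for fibronectin and tenascin C, went from 6.14 ± 0.992 to 16.9 ± 4.62 CPM (SD, n = 4 each; log2 fold change 1.49, edgeR adjusted p = 0.000203). Itgb1, the shared beta chain, rose by 0.28 (edgeR adjusted p = 0.0345), and Itga9, a tenascin C receptor chain, by 0.34 (0.0499), close to the threshold and with 15 of 16 pairs of rats in this direction. The count of 4 fell to 2 without Sham rat 12, Sham rat 32, MI rat 57 or MI rat 61.

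TGF-beta ligands, receptors, SMADs and their regulators had 7 of 14 genes higher in MI, none lower (median log2 fold change 0.51). Ltbp2, a latent TGF-beta binding protein family member of elastic fibers, went from 3.87 ± 0.620 CPM in Sham to 85.0 ± 9.94 CPM in MI (SD, n = 4 each; log2 fold change 4.46, standard error 0.19, edgeR adjusted p = 4.12e-12). The connective tissue growth factor gene Ccn2 rose by 1.38 (edgeR adjusted p = 0.000344), and the ligand genes Tgfb2 and Tgfb3 by 1.31 (0.000398) and 1.00 (1.11e-05). Ltbp3, which helps secrete latent TGF-beta, rose by 0.83 (edgeR adjusted p = 0.000164).

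All 13 scar collagen genes were higher in MI than in Sham, by a median of 1.19 in log2 fold change, and all 13 kept the call without each rat in turn. Of all genes tested, 5.82% were called higher. The largest changes were those of Col11a1 (3.78), Col8a1 (2.48), Col12a1 (2.30), Col1a1 (1.56) and Col3a1 (1.45). Of the late scar genes, Comp, Chad, Cilp2, Fmod, Ecrg4 and Sfrp2, all 6 were higher in MI (median log2 fold change 3.11), also without rat 36, which held the highest MI value for Comp (11.3 CPM), Chad (18.3 CPM), Fmod (16.0 CPM) and Cilp2 (3.58 CPM). Comp, a pentameric protein that organizes collagen fibrils, had 1 or 2 counts in each Sham library. Among the general fibroblast markers Thy1, a surface glycoprotein, rose by 2.11 (edgeR adjusted p = 0.00342), Lum by 0.87, Pdgfra by 0.49, Ddr2 by 0.42 and Col15a1 by 0.35, while Dcn (0.19), Gsn (0.15) and Tcf21 (0.52) were not called. In MI + UA versus MI, 0 genes of these 6 lists were called, as were 0 of all genes tested.

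Among 10923 genes with a symbol and an average log2 CPM of at least 1, the genes whose log2 CPM followed each of the 8 most closely over the 12 rats were found by Pearson's r, given as a description since all rats share the contrast with Sham. For Postn these were Col1a1 (r = 0.988), Col3a1 (0.984) and Fbn1 (0.976), which encode fibrillar collagens and fibrillin 1. For Cilp they were Pi16 (0.987), Timp1 (0.983) and Mfap5 (0.982), for Fn1 Col6a2 (0.985), Prrx1 (0.98) and Igf1 (0.976), and for Sparc Igf1 (0.947), Itga8 (0.943) and Col6a1 (0.943). Tnc was followed by Sorcs2 (0.96), Col12a1 (0.931) and Nras (0.926), Cthrc1 by Lilrb3 (0.949), Cd180 (0.949) and Met (0.938), Fap by Fxyd2 (0.959), Pak1 (0.959) and Mnda (0.958), and Tgfbi by Oas1k (0.888), Ptdss1 (0.884) and Plbd2 (0.88). With each rat's deviation from its group mean in place of its level, so that the difference between groups was removed, Postn was still closest to Col3a1 (0.94) and Col1a1 (0.939), followed by Src (0.924), and Sparc to Col1a2 (0.973), Col1a1 (0.931) and Itga8 (0.923). For Fn1 the closest were then Col6a2 (0.954), Mmp12 (0.953) and Igfbp4 (0.947), and for Cthrc1 Mmp14 (0.966), Cd180 (0.953) and Lilrb3 (0.95). Tnc was close to Nras (0.949) and Ttyh1 (0.923), Fap to S1pr2 (0.934), Siglec1 (0.91) and Kremen1 (0.899), Tgfbi to C1s (0.929), Ptpro (0.923) and Oas1k (0.903), and Cilp to Cpne8 (0.943), Psmb5 (0.92) and Tinagl1 (0.915). These correlations come from 12 libraries that share depth and composition differences, and for Cthrc1 and Tnc from counts as low as 0 and 4.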

How the data were processed

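The authors mapped strand-specific, paired-end reads from ribosomal RNA-depleted libraries with STAR 2.6.1c to mRatBN7.2 (Ensembl annotation) and deposited counts of reads per gene from htseq-count, without normalization. The strand setting of the counting is not given in the sources used here, and a further MI + UA library, which the study set aside as an outlier, was not used here. The 8 genes and all gene lists were chosen with earlier results of these data known. Of 30560 genes, the 18182 with at least 10 counts in total entered edgeR 4.0.16 (R 4.3.3; TMM scaling, quasi-likelihood test, the 3 groups in one fit, Benjamini-Hochberg adjustment, threshold 0.05), tested on simulated data. The 5 summary lines of htseq-count were left out; ambiguous reads were 3.50% to 4.14% of those counted. CPM are counts after TMM scaling to a common library size. Log2 CPM used a prior count of 1. Standard errors are the log2 fold change over the square root of F, with 95% intervals. Ratios within a library were compared by two-sided exact permutation over 70 groupings. Text was limited to the 8 genes, up to 5 called genes per list with the largest change, any gene a count or library turned on, and the 3 genes most correlated with each member, of which some are not reported here. Intervals on counts cover counting error only. Rats are separate animals, and no batch was given. Gene lengths and protein sequences were not used here, so levels were not compared between genes.

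Lists of other cell types served as checks, beside 5.82% of all genes tested called higher and 5.53% lower in MI versus Sham. Called in MI versus Sham were 4 of 7 smooth muscle and pericyte markers (higher; 2 without rat 12, 17, 36 or 61), 1 of 6 endothelial (lower), 1 of 4 Schwann cell (higher; 0 without rat 12, 32, 38, 36, 57, 61 or 89) and 3 of 3 cartilage markers (higher; 1 without rat 36, 12, 17 or 38), and 0 of 6 lymphocyte, 2 adipocyte, 4 mesothelial and 2 hepatocyte markers. In MI + UA versus MI 0 of any list were called, as were 0 of all genes tested. Alternatives were DESeq2 1.42.0 as tool and as scaling, other filters, scaling without mitochondrially encoded genes, the 2 groups compared alone, rat 66 in MI, another prior count, Dcn as reference, and each rat left out. The list counts under these alternatives were chosen after seeing the data.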

Additional observations from a re-analysis of the deposited data

How the results depend on the processing

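No paired analysis was possible because each rat belongs to a single group. Over 81 results, 1114 of 1200 alternatives kept the direction and the side of the threshold or, for counts, stayed within 1.5 times. This total includes the list counts of MI + UA versus MI, where 0 of all genes were called. Such counts of 0 could hardly move, so the total does not measure how stable the other results are. In MI + UA versus MI, moving rat 66 to MI turned the log2 fold change of Sparc to 0.105 and that of Tgfbi to 0.041. It raised those of Tnc from 0.789 to 1.47, Cthrc1 from 0.50 to 0.999, Postn from 0.0585 to 0.481, Fn1 from 0.161 to 0.458 and Fap from 0.102 to 0.252. That of Cilp went from -0.24 to -0.102, and none of these genes was called. With this move the number of genes whose ratio to the fibroblast markers separated the groups went from 0 to 1 (Cilp, against 1.2% of all genes with the rats as labelled). Leaving out each rat gave that number a range of 0 to 1, and it gave log2 fold changes from -0.273 to 0.314 for Postn, -1.08 to 1.20 for Tnc, -0.12 to 0.501 for Fn1, -0.0895 to 0.0497 for Sparc, -0.0942 to 1.00 for Cthrc1, -0.0294 to 0.207 for Fap and -0.17 to 0.0189 for Tgfbi, none of them called. The sign of these differences rested on single rats: it turned without MI rat 57, MI + UA rat 58 or MI + UA rat 64 for Postn and Fn1, and without rat 58 for Tnc. Over all genes, MI + UA versus MI went from 0 calls to 3 with no filter and to 1 without MI rat 36. No scaling moved the median of all genes by more than 0.1 on the log2 scale. Sham libraries held 1 to 10 counts of Tnc or Cthrc1. The cause of the other changes was not tested.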
